A study of Oryza sativa Indica Group with 8 samples.

Results

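Transcript levels in roots of Nootripathu rice under drought were set against those in watered Nootripathu roots. Nootripathu is a deep-rooted, low-yielding indica landrace that the labels class as drought tolerant. The comparison rests on 4 of the 8 arrays of the series, 2 from stressed and 2 from control Nootripathu roots; the other 4 arrays come from IR20, a shallow-rooted, semi-dwarf, high-yielding indica cultivar classed as drought susceptible, again 2 stressed and 2 control. All plants grew in the same way, 1 plant to a PVC pipe 1 m long and 15 cm wide, in 3 parts of coir pith to 1 part of soil in a greenhouse. In the stressed groups water was withheld from 40 days after sowing, until leaves rolled and dried. At harvest the control roots were washed with de-ionised water and the stressed ones freed of soil by tapping alone, so handling and drought cannot be told apart. The labels call the replicates biological and do not say whether plants were pooled, so the p values measure only the spread between these samples.

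A root that dries out raises abscisic acid, a hormone that is bound by PYL receptors. These receptors then block protein phosphatases 2C (PP2C), which frees SnRK2 kinases (SAPK in rice) to act on bZIP transcription factors. Among the known targets of this pathway are late embryogenesis abundant (LEA) proteins and dehydrins, hydrophilic proteins that protect other proteins and membranes during water loss. Roots of monocots also depend on water channels, on nicotianamine and phytosiderophores for iron, and on the Casparian strip, a wall barrier that makes uptake selective.

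Signals are log2 values from robust multi-array averaging (RMA), so a difference of 1 is 2-fold. A gene is represented by its probe set of highest mean signal, and 17905 genes were covered, of which 2455 carry a name. Differences are stress minus control with the standard error (SE) of limma, n = 2 arrays per group; the SE uses the spread within all 4 groups. Genes "rose" or "fell" where limma's p, adjusted by Benjamini and Hochberg over 57258 probe sets, was under 0.05. Signals of different genes come from different probes and are not compared. The median signal lay between 5.29 and 5.35 on the 8 arrays, their lowest signals between 2.53 and 2.64 and their highest between 14.9 and 15.3.

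The root label was checked against fixed markers. Of 13 root markers 11 were found. LSI1, the silicon channel of the root exodermis and endodermis, read 13.44 and 13.48 in stressed roots and 14.52 and 14.49 in control roots. Of 13 photosynthetic markers 2 rose and 4 fell, and their summed signal was 83.8 to 84.1 on stressed arrays and 86.1 to 86.6 on control arrays. Among them rbcS, the small subunit of Rubisco, read 7.21 and 7.37 in stressed roots and 6.98 and 7.24 in control roots. Of these 11 root markers 9 fell and 0 rose, and their summed signal was 76.6 to 77.9 on stressed arrays and 97.3 on both control arrays. In whole roots, fewer cells of a type and less RNA per cell cannot be told apart. Spike-in transcripts with a poly-A tail serve as labelling controls, and their 3′ probe sets gave 11.09 and 10.67 in stressed roots and 9.96 and 10.01 in control roots, a gap of 0.89. Scaling the arrays to these signals lowers every Nootripathu difference by 0.89, so the direction of rises smaller than that depends on the scaling. Under it 5 of the 163 genes examined singly changed sign, 16 lost their call and 3 gained one. Of the rises among those 163 genes, ABA1, ABA8OX1, AGO4A, ALN, CESA4, CHT1 (LOC4338719), CLPB-C, DCL2A, MCM3, MCM5, NIN1, PDC2, RDR2, RPA32, RPA70c and TPP7 did not pass with that scaling. The 3′ over 5′ excess of the spike-ins was 2.08 to 2.13 on stressed and 2.08 to 2.35 on control Nootripathu arrays, but 5.32 on the array of stressed IR20 replicate 2.

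Stressed and control roots differed in most of the measured genes. Of 57258 probe sets 31.9% passed, 17.5% higher and 14.4% lower in stressed roots. Of 17905 genes 9733 (54.4%) passed, with 5573 (31.1%) higher and 4160 (23.2%) lower in stressed roots. At 2-fold or more 1824 genes (10.2%) rose and 2051 (11.5%) fell. At 4-fold or more, falls outnumbered rises, with 435 genes up (2.43%) and 752 down (4.2%), and at 16-fold or more 73 were up (0.408%) and 101 down (0.564%). All of these 435 and 752 genes kept their call and direction with spike-in scaling. Over all genes that scaling gave 755 rises and 10970 falls, and over all probe sets 3.35% of calls were rises, against 54.7% with the deposited scaling. The median gene differed by 0.45 in size between stressed and control roots, against gaps of 0.08 between the stressed replicates and 0.07 between the control replicates. In 15234 genes (85.1%) both arrays of a group lay above both arrays of the other.

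**Figure D1:**
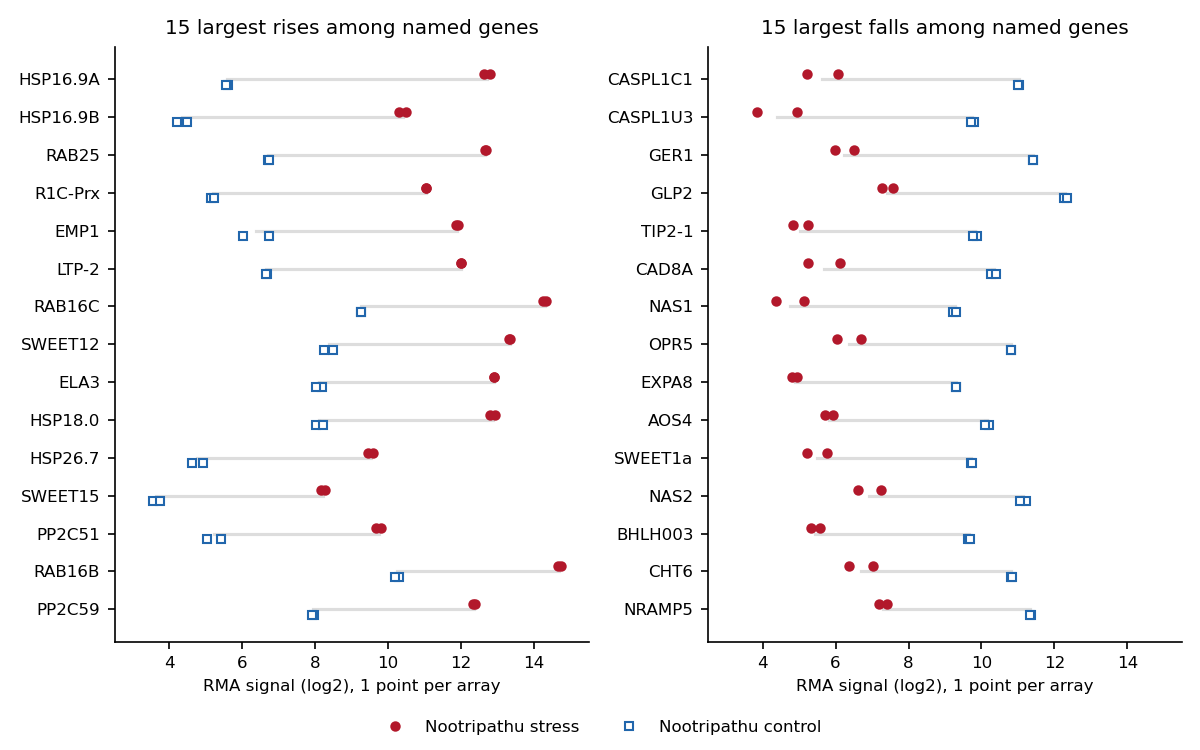
Signal (log2 RMA) of the 15 named genes with the largest rises (left) and falls (right), 1 point per array, stressed Nootripathu roots as filled circles and control roots as open squares; grey lines join the group means. The groups do not overlap in any of the 30 genes, and the 2 stressed arrays lie further apart among the falls than among the rises.

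The 2 stressed arrays differed in the depth of the falls. Among the 101 genes that fell at least 16-fold, stressed replicate 1 was below stressed replicate 2 in 99, by a median of 0.60, while the median gap between the control replicates was −0.0072. Among the 73 genes that rose at least 16-fold, replicate 1 was below replicate 2 in 30, and the median gap was 0.02. LOC4324329, a locus without a name, stood at 5.24 and 8.01 in stressed roots and 12.82 and 12.92 in control roots.

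**Figure D2:**
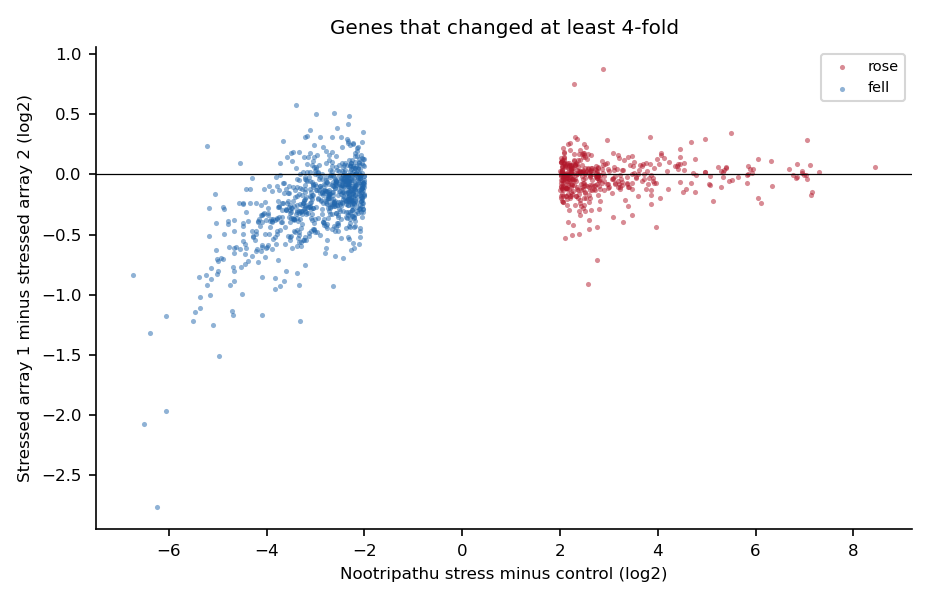
Gap between the 2 stressed Nootripathu arrays (array 1 minus array 2, log2) against the drought difference (log2) for each gene that changed at least 4-fold. Genes that rose (right) scatter around 0, whereas genes that fell (left) lie mostly below 0, and 99 of the 101 with falls of at least 16-fold do so.

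LEA proteins and dehydrins had the highest median of the 51 gene lists. Of 8 measured members 7 rose and 1 fell, with a median of 3.97, against a median of 0.08 over all genes, and with spike-in scaling the counts were again 7 and 1. RAB25 read 12.69 and 12.64 in stressed roots and 6.70 and 6.73 in control roots, a difference of 5.95 ± 0.14 (adjusted p = 1.87e-07). EMP1, an Em-type protein of the embryo, read 11.87 and 11.92 in stressed roots and 6.73 and 6.01 in control roots (5.52 ± 0.22, adjusted p = 1.29e-06). In both genes the stressed arrays lay at nearly the same level and far above the control arrays.

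The RAB16 dehydrins, classic abscisic acid responsive genes of rice, sit next to each other in the genome with no other protein-coding gene between them, and all 4 rose. RAB16C stood at 14.25 and 14.33 in stressed roots and 9.24 and 9.25 in control roots, a difference of 5.05 ± 0.12. RAB16B rose by 4.46 ± 0.10, RAB16D by 3.48 ± 0.10 and RAB21, also known as RAB16A, by 3.23 ± 0.11. RAB21 read 15.26 on both stressed arrays, the top of the array range, so its rise is a lower bound. For RAB16B, RAB16C, RAB16D and RAB21 the adjusted p ranged over 1.52e-07 to 7.37e-07. LEA3 followed at 13.98 and 14.10 in stressed roots and 10.47 and 10.65 in control roots (3.48 ± 0.11, adjusted p = 6.31e-07). The exception was the dehydrin DHN1, high in all arrays, with 13.82 and 13.89 in stressed roots and 14.17 and 14.22 in control roots (−0.34 ± 0.10, adjusted p = 0.0252); it did not pass after median-centring (adjusted p = 0.0591) or without any of the 4 Nootripathu arrays (adjusted p 0.0723 to 0.141).

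The list of seed storage and oil body genes held 10 storage protein genes and no oil body gene. Of these 10 genes 0 rose and 3 fell (median −0.10). Outside that list, R1C-Prx encodes a 1-Cys peroxiredoxin, an antioxidant enzyme of embryo and aleurone; it read 11.03 on both stressed arrays and 5.14 and 5.23 in control roots (5.84 ± 0.10, adjusted p = 4.68e-08). Of 5 lipid transfer protein genes 1 rose and 2 fell. The rise was that of LTP-2, which read 12.01 and 11.99 in stressed roots and 6.68 and 6.64 in control roots (5.34 ± 0.12, adjusted p = 1.51e-07). TIP3-1, a vacuolar water channel of the seed type, rose by 2.09 ± 0.11 (adjusted p = 4.64e-06).

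Small heat shock proteins, chaperones that hold unfolding proteins, included both the largest rise of any named gene and strong falls. Of 19 members 12 rose and 4 fell (median 0.79), and with spike-in scaling 6 rose and 7 fell (median −0.10), so the balance of the list depends on the scaling. HSP16.9A read 12.62 and 12.80 in stressed roots and 5.61 and 5.56 in control roots, a rise of 7.12 ± 0.14 or 139-fold (adjusted p = 1.15e-07). Its direct neighbour in the genome, HSP16.9B, read 10.30 and 10.49 in stressed roots and 4.47 and 4.21 in control roots (6.06 ± 0.17, adjusted p = 4.05e-07). On all 4 stressed and control arrays the 2 groups were far apart in both genes, with the replicates close together. HSP18.0 and HSP26.7 rose by 4.76 ± 0.15 and 4.75 ± 0.16.

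Other members of the family fell. HSP18.8 read 9.43 and 9.90 in stressed roots and 13.12 and 13.08 in control roots (−3.43 ± 0.16, adjusted p = 2.38e-06). HSP24.1 read 9.69 and 9.91 in stressed roots and 13.02 and 13.07 in control roots (−3.24 ± 0.11, adjusted p = 8.5e-07), and HSP16.0 fell by 1.62 ± 0.14. Among the 10 larger chaperones of the HSP70, HSP90 and HSP100 families 4 rose and 2 fell, and the rises belonged to the Clp and HSP100 group of protein disaggregases and proteases. HSP101 rose by 2.03 ± 0.13, CLPB-M by 1.68 ± 0.12 and CLPB-C by 1.14 ± 0.12, whereas CLPD1 of the same group and the HSP90 gene HSP81-1 fell by 0.55 and 0.61. Of 20 heat stress factors, the transcription factors that drive these chaperone genes, 11 rose and 5 fell (median 0.46; 3 up and 9 down with spike-in scaling). Leaving out any 1 of the 4 Nootripathu arrays left 6 or 7 rises, and 3 falls were left without control replicate 1 or stressed replicate 1. HSF01 rose by 2.52 ± 0.10, HSF05 by 2.42 ± 0.13 and HSF07 by 2.05 ± 0.10, and HSF10 fell by 1.42 ± 0.11.

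Of 20 genes of abscisic acid perception and signalling 7 rose and 5 fell (median −0.16), close to the 31.1% and 23.2% of all genes, and with spike-in scaling 2 rose and 12 fell; the 5 falls dropped to 2 without any 1 Nootripathu array. The highest member was the phosphatase gene PP2C51, which read 9.66 and 9.81 in stressed roots and 5.02 and 5.40 in control roots (4.52 ± 0.48, adjusted p = 0.000171). The phosphatase gene PP2C59 read 12.38 and 12.34 in stressed roots and 7.98 and 7.92 in control roots (4.41 ± 0.10, adjusted p = 2.02e-07). PP2C61 went the other way, with 7.13 and 7.29 in stressed roots and 9.57 and 9.49 in control roots (−2.32 ± 0.10, adjusted p = 2.08e-06). PP2C59 and PP2C61 are not in the list of 20. Of its other phosphatases, PP2C08 rose by 2.11 ± 0.10, and PP2C30 stood at −0.36 ± 0.09 (adjusted p = 0.0189), but did not pass without any 1 Nootripathu array (adjusted p 0.0657 to 0.107). The lowest member was the receptor gene PYL11, which fell by 1.16 ± 0.09 (adjusted p = 4.04e-05). The SAPK kinases moved little: 3 of 10 rose and 2 fell, within −0.51 to 0.89. At the ends were SAPK10, at 0.89 ± 0.10 (−0.01 with spike-in scaling), and SAPK7, at −0.51 ± 0.13 (adjusted p = 0.0149; 0.0644 to 0.0768 without any 1 Nootripathu array).

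Genes that make and break down abscisic acid also moved. ABA1, the zeaxanthin epoxidase of its synthesis, rose by 0.91 ± 0.14 (0.02 with spike-in scaling, which did not pass). Of the 2 hydroxylases that inactivate the hormone, ABA8OX1 read 13.55 and 13.48 in stressed roots and 12.13 and 12.10 in control roots (1.40 ± 0.11, adjusted p = 3.14e-05; 0.50 with spike-in scaling, which did not pass). ABA8OX2 read 8.65 and 8.61 in stressed roots and 10.29 and 10.20 in control roots (−1.62 ± 0.11, adjusted p = 1.22e-05). The hydroxylases moved in opposite directions with the deposited scaling.

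Proline is a compatible solute that plants accumulate in drying tissue. P5CS2, which encodes the enzyme of its first committed step, read 8.84 and 8.71 in stressed roots and 4.66 and 4.63 in control roots (4.13 ± 0.10, adjusted p = 2.19e-07). P5CS1, of the same step, rose by 0.75 ± 0.09 (adjusted p = 0.000401) and stood at −0.15 with spike-in scaling. In the list of proline and polyamine synthesis 6 of 9 genes rose and 2 fell, with a median of 0.55; with spike-in scaling 1 rose and 3 fell. Of 37 antioxidant genes 16 rose and 5 fell (median 0.15), or 3 up and 20 down with spike-in scaling; 2 falls were left without control replicate 1 or stressed replicate 1. Of 6 glutathione S-transferases, which conjugate toxic compounds to glutathione, 5 rose and 0 fell (median 1.18), or 1 up and 1 down with spike-in scaling and 3 up without probe sets that may match several transcripts. GST-I read 10.89 and 10.83 in stressed roots and 8.14 and 8.03 in control roots (2.78 ± 0.14, adjusted p = 3.25e-06).

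Sugar transporters moved in both directions. SWEET proteins export sugars from cells. SWEET12 read 13.34 and 13.32 in stressed roots and 8.25 and 8.48 in control roots, a rise of 4.96 ± 0.19 (adjusted p = 1.11e-06). SWEET15 read 8.15 and 8.27 in stressed roots and 3.54 and 3.75 in control roots (4.57 ± 0.12, adjusted p = 2.71e-07), and SWEET1b rose by 3.10 ± 0.19. In contrast SWEET1a read 5.20 and 5.75 in stressed roots and 9.71 and 9.73 in control roots (−4.25 ± 0.17, adjusted p = 1.36e-06). Of 12 SWEET genes 6 rose and 4 fell, or 3 and 5 with spike-in scaling. The monosaccharide transporter gene MST3 fell by 2.73 ± 0.11.

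Sucrose synthases, which split sucrose into UDP-glucose and fructose, all passed the test: 2 of 6 rose and 4 fell, with either scaling. SUS4 read 13.47 and 13.37 in stressed roots and 9.73 and 9.58 in control roots (3.76 ± 0.14, adjusted p = 1.03e-06), and SUS3 rose by 1.93 ± 0.13. SUS2 read 12.91 and 13.00 in stressed roots and 13.87 on both control arrays (−0.91 ± 0.10). SUS5 fell by 2.25 ± 0.26. SUS1 stood at −0.57 ± 0.13 (adjusted p = 0.0113), but did not pass without control replicate 1, control replicate 2 or stressed replicate 1 (adjusted p 0.0556 to 0.0688). Among the invertases, which split sucrose into glucose and fructose, the cell wall enzyme gene CIN7 read 7.31 and 7.81 in stressed roots and 11.34 and 11.36 in control roots (−3.79 ± 0.17, adjusted p = 2.15e-06). The neutral invertase gene NIN1 rose by 1.44 ± 0.11.

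Of 10 starch genes other than amylases 8 rose and 0 fell (median 1.87); with spike-in scaling 6 rose and 1 fell. AGPS2, a small subunit of ADP-glucose pyrophosphorylase, the first committed enzyme of starch synthesis, read 9.45 and 9.65 in stressed roots and 6.31 and 6.12 in control roots (3.34 ± 0.14, adjusted p = 1.37e-06). The starch synthase gene SSI rose by 2.96 ± 0.10, and the glucanotransferase genes DPE1 and DPE2, which act on maltose and short glucans, rose by 2.77 ± 0.11 and 2.46 ± 0.11. Of 5 amylase genes 1 rose and 2 fell. AMY3D, an alpha-amylase gene known in rice cells for its rise in sugar starvation, read 7.58 and 7.72 in stressed roots and 11.04 and 11.09 in control roots (−3.42 ± 0.17, adjusted p = 3.58e-06). MYBS1, a regulator of that amylase, read 4.98 and 5.54 in stressed roots and 8.49 and 8.62 in control roots (−3.30 ± 0.19, adjusted p = 7.34e-06).

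Of 9 trehalose synthesis genes 4 rose and 1 fell (median 0.43; 0 and 4 with spike-in scaling), TPP7 by 1.18 ± 0.09, and 2 rises were left without control replicate 1, stressed replicate 1 or probe sets that may match several transcripts. The ethanol fermentation genes PDC1 and PDC2, which encode pyruvate decarboxylase, rose by 1.99 ± 0.13 and 1.18 ± 0.10. The rise of PDC2 did not pass with spike-in scaling. PDC3, of the same family, did not pass with the deposited scaling (−0.14 ± 0.10, adjusted p = 0.388). ADH2, alcohol dehydrogenase of the next step, read 11.73 and 11.80 in stressed roots and 12.06 and 12.02 in control roots (−0.28 ± 0.12, adjusted p = 0.112; 0.0487 in a fit of the 4 Nootripathu arrays alone).

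**Figure D3:**
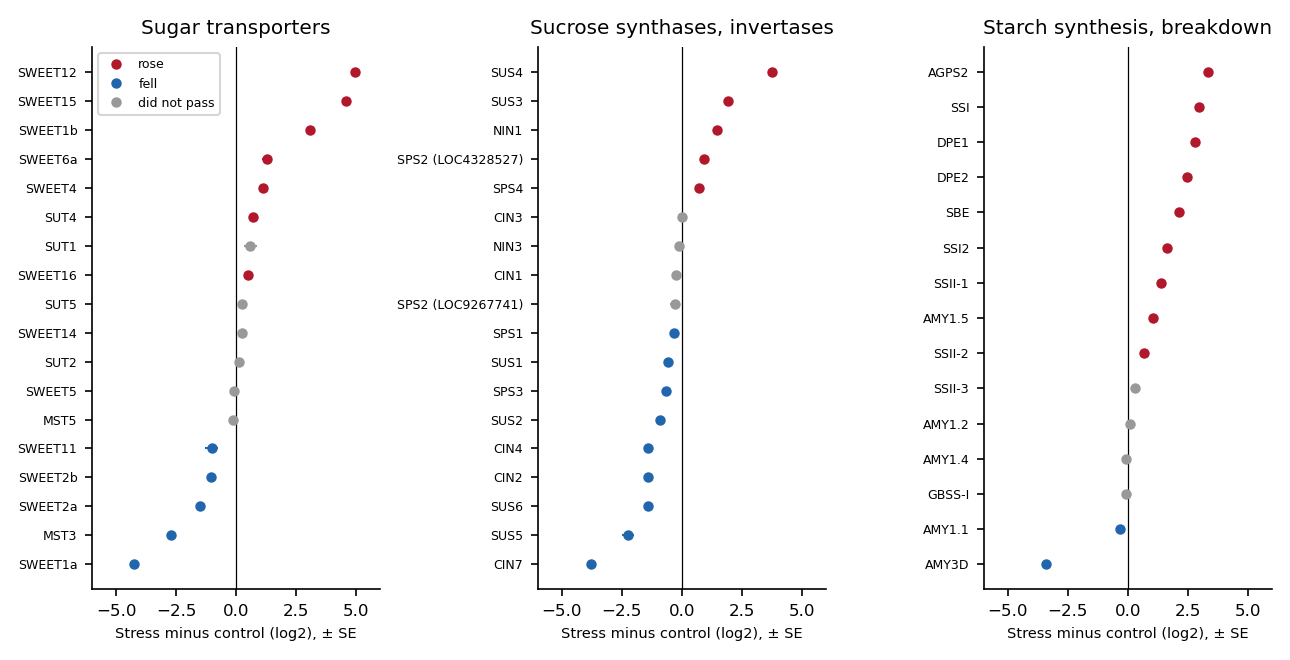
Stress minus control difference (log2) of every measured gene of 3 carbohydrate lists in Nootripathu roots, with the SE as a horizontal bar that is often hidden by the point. SWEET12 and SWEET15 lie at the top and SWEET1a at the bottom of the transporters, SUS4 and CIN7 mark the ends of the sucrose list, and AGPS2 and AMY3D those of the starch list.

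Water channels went down, with exceptions. Of 25 aquaporin genes 14 fell and 3 rose (median −0.55), or 22 and 1 with spike-in scaling; where probe sets that may match several transcripts were left out, 9 falls were left. TIP2-1, a channel of the vacuolar membrane, read 4.82 and 5.23 in stressed roots and 9.87 and 9.76 in control roots (−4.79 ± 0.24, adjusted p = 3.75e-06). PIP2-2, a channel of the plasma membrane, read 9.10 and 9.32 in stressed roots and 12.43 and 12.48 in control roots (−3.24 ± 0.13, adjusted p = 1.45e-06). TIP2-2 and PIP2-4 fell by 2.93 ± 0.12 and 2.58 ± 0.14. The silicon channel LSI1 fell by 1.04 ± 0.09, and LSI2, the exporter that works with it, read 9.69 and 9.84 in stressed roots and 13.25 and 13.35 in control roots (−3.54 ± 0.18, adjusted p = 3.85e-06).

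Several genes of iron acquisition fell, with NAS3 as an exception. NAS1 and NAS2 are adjacent genes of nicotianamine synthase. NAS1 read 4.36 and 5.13 in stressed roots and 9.22 and 9.30 in control roots (−4.52 ± 0.25, adjusted p = 4.9e-06). NAS2 read 6.60 and 7.24 in stressed roots and 11.22 and 11.05 in control roots (−4.21 ± 0.20, adjusted p = 2.82e-06). In each the stressed arrays lay far below the control arrays, replicate 1 lowest. NAAT1, of the next step towards phytosiderophores, fell by 3.21 ± 0.11, the iron-phytosiderophore transporter gene YSL15 by 3.14 ± 0.16 and the iron transporter gene IRT1 by 1.48 ± 0.13. NAS3 went the other way, with 11.09 and 11.01 in stressed roots and 8.75 and 8.76 in control roots (4.92-fold, adjusted p = 1.89e-06). Over all 49 genes of iron, zinc and manganese transport 9 rose and 13 fell (median −0.13), or 3 and 40 with spike-in scaling. NRAMP5, the manganese and cadmium importer, read 7.18 and 7.42 in stressed roots and 11.35 and 11.32 in control roots (−4.04 ± 0.16, adjusted p = 1.19e-06). The zinc transporter genes HMA2 and ZIP4 rose by 2.87 ± 0.41 and 2.02 ± 0.10.

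Of 23 nitrogen genes 11 fell and 6 rose (median −0.41; 16 and 2 with spike-in scaling). The ammonium transporter gene AMT1-2 read 6.60 on both stressed arrays and 9.26 and 9.36 in control roots (−2.71 ± 0.09, adjusted p = 8.53e-07), and the glutamate dehydrogenase gene GDH1 fell by 2.44 ± 0.10. NAR2.2, a partner protein that high-affinity nitrate transporters need, read 9.11 and 9.24 in stressed roots and 5.20 and 5.43 in control roots (3.86 ± 0.18, adjusted p = 2.42e-06). The transporter gene NRT2.3 itself did not pass, at 10.78 and 10.93 in stressed roots and 11.03 and 11.14 in control roots (−0.23 ± 0.15, adjusted p = 0.306). GLN1-2, a cytosolic glutamine synthetase gene, fell by 2.12 ± 0.12. GLN1-3, of the same family, read 12.73 and 12.64 in stressed roots and 8.96 and 8.74 in control roots (3.84 ± 0.14, adjusted p = 9.52e-07).

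Among 41 genes of phosphate, potassium and sulfate transport 9 rose and 17 fell (median −0.20), or 3 and 32 with spike-in scaling; 5 rises were left without control replicate 1, control replicate 2 or stressed replicate 1, and 11 falls without probe sets that may match several transcripts. The potassium transporter genes HAK4 and HAK9 stood at 2.75 ± 0.24 and −3.31 ± 0.17. The phosphate genes PHO1-3, of the family that loads phosphate into the xylem, and PHT1-8, an importer, moved by 2.18 ± 0.12 and −2.59 ± 0.16.

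Wall and barrier genes held the largest falls among named genes. CASPL1C1, a relative of the membrane proteins that organise the Casparian strip, read 5.21 and 6.07 in stressed roots and 11.04 and 11.004 in control roots (−5.38 ± 0.25, adjusted p = 2.3e-06). CASPL1U3 read 3.84 and 4.95 in stressed roots and 9.78 and 9.71 in control roots (−5.35 ± 0.30, adjusted p = 5.94e-06). In both genes stressed replicate 1 was lower by about 1, the pattern seen in the large falls. The list had 11 falls and 5 rises in 22 genes (median −0.37; 16 and 2 with spike-in scaling), and CASP1, the marker of the endodermal strip, fell by 1.38 ± 0.25.

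Germin-like proteins, wall glycoproteins that include oxidases, fell in 6 of 9 cases and rose in 1 (8 and 1 with spike-in scaling). GER1 read 5.99 and 6.50 in stressed roots and 11.42 and 11.41 in control roots (−5.17 ± 0.17, adjusted p = 6.34e-07), and GLP2 read 7.28 and 7.57 in stressed roots and 12.26 and 12.34 in control roots (−4.88 ± 0.19, adjusted p = 1.21e-06). GER3, from the same stretch of the genome, read 10.69 and 10.54 in stressed roots and 7.04 and 7.24 in control roots (3.47 ± 0.17).

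Genes of wall loosening, the expansins and xyloglucan endotransglucosylases, fell in 15 of 30 cases and rose in 2 (median −0.52; 25 and 0 with spike-in scaling). EXPA8 read 4.82 and 4.94 in stressed roots and 9.29 and 9.30 in control roots (−4.42 ± 0.24, adjusted p = 4.93e-06). EXPA5 and EXPB2 fell by 3.15 ± 0.10 and 3.04 ± 0.21. Of 28 lignin synthesis and laccase genes 16 fell and 1 rose (median −0.45; 24 and 1 with spike-in scaling). CAD8A, of the cinnamyl alcohol dehydrogenase family, read 5.23 and 6.12 in stressed roots and 10.27 and 10.40 in control roots (−4.66 ± 0.25, adjusted p = 5.07e-06). The single rise was that of the laccase gene LAC10, at 10.79 and 10.71 in stressed roots and 6.73 and 6.72 in control roots (4.03 ± 0.12, adjusted p = 4.03e-07). LAC15 fell by 2.74 ± 0.19.

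Cellulose synthases did not follow these falls. Of 9 CESA genes 6 rose and 0 fell (median 0.49), although with spike-in scaling 0 rose and 2 fell. The genes known for the secondary walls of rice, CESA4, CESA7 and CESA9, rose by 1.30 ± 0.10, 0.74 ± 0.15 and 0.83 ± 0.12 (adjusted p = 3.59e-05, 0.00577 and 0.00108). CESA7 and CESA9 were added to complete the trio after their values were seen. With spike-in scaling CESA7 and CESA9 stood at −0.15 and −0.07. BC1, a COBRA-like protein of secondary wall assembly whose mutants have brittle culms, read 8.57 and 8.63 in stressed roots and 6.63 and 6.72 in control roots (1.92 ± 0.09, adjusted p = 3.12e-06). In the whole list of cellulose synthases and relatives 13 of 33 rose and 10 fell (median 0.13; 2 and 18 with spike-in scaling; 6 falls without either stressed Nootripathu array), with CSLA5 at 2.49 ± 0.12 and CSLA1 at −2.65 ± 0.20.

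**Figure D4:**
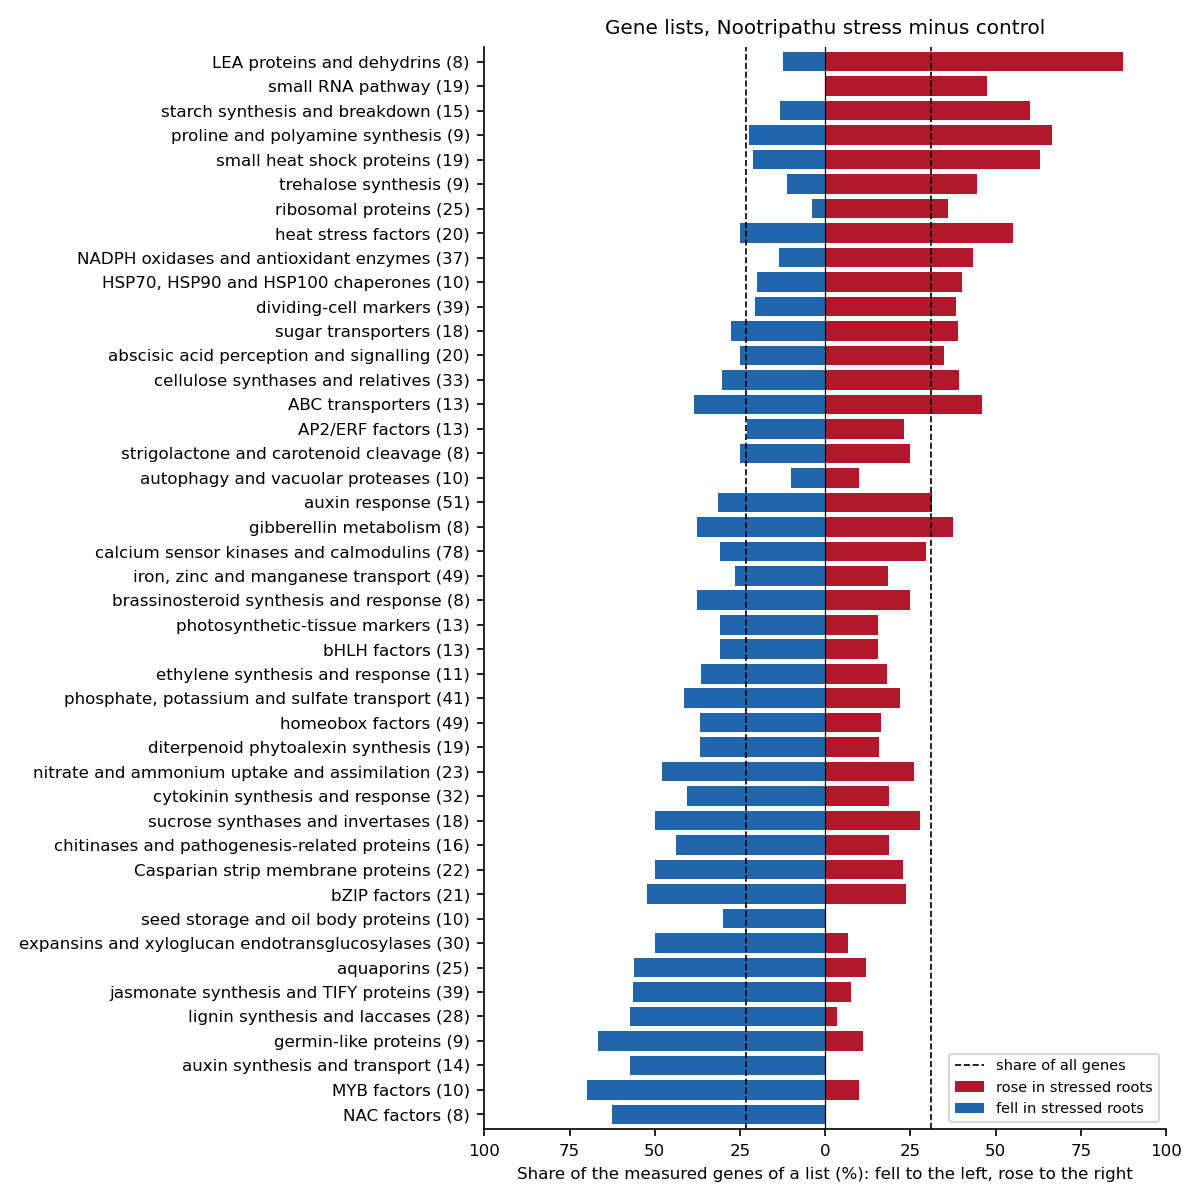
Share of the measured genes (%) of each list with at least 8 genes (number in brackets) that rose (right, red) or fell (left, blue) in stressed Nootripathu roots with the deposited scaling. Dashed lines mark the shares over all 17905 genes, 31.1% up and 23.2% down; LEA proteins and dehydrins stand at the top with 7 of 8 up, and NAC factors at the bottom with 5 of 8 down.

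Of the 6 subunits of the MCM2 to MCM7 helicase that opens the DNA for replication, 5 rose and 0 fell (median 0.85), and with spike-in scaling 0 rose and 0 fell. MCM5 read 8.09 and 8.29 in stressed roots and 7.09 and 6.95 in control roots (1.17 ± 0.21, adjusted p = 0.0032). MCM3 rose by 1.12 ± 0.29 (adjusted p = 0.0186; 0.0682 to 0.114 without control replicate 1, stressed replicate 1 or stressed replicate 2), and MCM4, at 0.69 ± 0.26, did not pass (adjusted p = 0.0886; 0.00305 in a fit of the 4 Nootripathu arrays alone). ORC4, of the origin recognition complex, rose by 2.05 ± 0.12, and the single-strand binding proteins RPA70c and RPA32 by 1.43 ± 0.10 and 1.19 ± 0.13. Of 8 cyclins and CDKB kinases, which drive cells through the cycle, 1 rose and 5 fell (median −0.73; 0 and 7 with spike-in scaling). CYCB2 (LOC4342121), a mitotic cyclin, read 4.26 and 4.55 in stressed roots and 6.02 and 5.85 in control roots (−1.52 ± 0.25, adjusted p = 0.00207), and CDKB2-1 fell by 0.75 ± 0.13. Over all 39 markers of dividing cells 15 rose and 8 fell (1 and 23 with spike-in scaling), with 9 rises left without stressed replicate 2 and 5 falls without control replicate 1 or stressed replicate 1. With the deposited scaling the shares that rose and fell were not far from the 31.1% and 23.2% of all genes. The summed signal of the 39 markers was 309 to 314 on stressed arrays and 303 on both control arrays.

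Of 19 small RNA pathway genes 9 rose and 0 fell (median 0.43), but 0 rose and 4 fell with spike-in scaling. DCL2A, a dicer-like nuclease gene, rose by 1.43 ± 0.10, the RNA-dependent RNA polymerase gene RDR2 by 1.23 ± 0.09 and the argonaute gene AGO4A by 1.00 ± 0.09. Of 25 ribosomal protein genes 9 rose and 1 fell (median 0.21), against 0 and 15 with spike-in scaling and 3 to 5 rises without control replicate 1, control replicate 2 or stressed replicate 2. The share of ribosomal genes that rose was near the 31.1% of all genes.

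Jasmonate genes were mostly lower. Of 39 genes of jasmonate synthesis and TIFY (JAZ) repressors 22 fell and 3 rose (median −0.52; 35 and 0 with spike-in scaling). AOS4, of the allene oxide synthase step, read 5.70 and 5.94 in stressed roots and 10.21 and 10.10 in control roots (−4.33 ± 0.11, adjusted p = 2.92e-07). OPR5 and OPR1, of the oxophytodienoate reductase family, fell by 4.44 ± 0.24 and 3.33 ± 0.17, and the lipoxygenase gene CM-LOX2 by 2.47 ± 0.11. Of 13 JAZ genes 9 fell and 0 rose. The 3 rises of the list dropped to 1 without control replicate 1, control replicate 2 or stressed replicate 1.

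Of 15 auxin response factors (ARF), which bind target promoters, 9 rose and 1 fell (median 0.61; 2 and 6 with spike-in scaling), with ARF16 at 2.45 ± 0.10 and ARF3 at 1.66 ± 0.12. The Aux/IAA repressors of these factors rose in 6 of 26 cases and fell in 10 (1 and 18 with spike-in scaling), with IAA6 at −2.27 ± 0.20 and IAA31 at −1.96 ± 0.11. Of 9 genes of the GH3 family, which includes auxin-conjugating enzymes, 1 rose and 4 fell (0 and 6 with spike-in scaling). GH3-8 stood at 1.33 ± 0.12 and GH3.6 at −1.86 ± 0.13. The list of auxin synthesis and transport had 8 falls and 0 rises in 14 genes, and fewer falls without any 1 Nootripathu array. The falls were those of PIN transporter genes and of ILL genes, relatives of auxin-conjugate hydrolases. The synthesis genes YUCCA1 and FIB did not pass, at 0.18 ± 0.15 and 0.02 ± 0.15 (adjusted p = 0.429 and 0.946).

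Of 32 cytokinin genes 13 fell and 6 rose (26 and 1 with spike-in scaling). Of 5 genes of cytokinin oxidases, which break the hormone down, 3 fell and 0 rose (5 and 0 with spike-in scaling). CKX11 read 7.07 and 7.39 in stressed roots and 10.66 and 10.84 in control roots (−3.52 ± 0.13, adjusted p = 1.12e-06), and CKX4 fell by 2.87 ± 0.20. LOGL10, of the family that activates cytokinins, rose by 2.49 ± 0.15 and its relative LOGL3 fell by 1.76 ± 0.10. In gibberellin metabolism, with 3 rises and 3 falls in 8 genes, the synthesis genes GA20OX3, CPS1 and SD1 stood at −2.61 ± 0.14, −2.27 ± 0.20 and −1.07 ± 0.13. The rises were KO5, KO1 (LOC4341343) and ks1, at 1.97 ± 0.11, 0.99 ± 0.12 and 0.92 ± 0.11. Those of KO1 and ks1 were barely above the 0.89 that spike-in scaling takes off every Nootripathu difference. KO5, KO1 and CPS1 also stand in the list of diterpenoid phytoalexin synthesis. CCD8A, of strigolactone synthesis, rose by 1.80 ± 0.11, and D14, the strigolactone receptor, read 11.01 and 11.03 in stressed roots and 13.17 and 13.14 in control roots (−2.14 ± 0.09, adjusted p = 1.78e-06).

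In 8 lists of transcription factors, leaving aside the heat stress and auxin response factors, falls outnumbered rises in all but AP2/ERF, which had 3 of each in 13 genes. Of 8 NAC factors 5 fell and 0 rose, and 3 falls were left without any 1 Nootripathu array. Falls numbered 7 of 10 in MYB, 4 of 6 in WRKY, 11 of 21 in bZIP and 18 of 49 in homeobox factors, beside 1, 1, 5 and 8 rises, and 4 of 13 bHLH and 3 of 6 GRAS factors fell beside 2 and 0 rises; the bZIP rises were 2 without control replicate 2 and 3 without stressed replicate 1. With spike-in scaling the falls were 8 in NAC, 9 in MYB, 5 in WRKY, 16 in bZIP and 38 in homeobox factors. BHLH003 read 5.33 and 5.57 in stressed roots and 9.63 and 9.69 in control roots (−4.21 ± 0.17, adjusted p = 1.36e-06). WRKY24, WRKY62, BZIP52, NAC068 and HOX2 fell by 2.60 ± 0.13, 2.32 ± 0.21, 2.90 ± 0.22, 2.14 ± 0.10 and 2.45 ± 0.18. WOX11, which promotes crown root growth in rice, read 6.26 and 6.43 in stressed roots and 9.46 and 9.44 in control roots (−3.11 ± 0.19, adjusted p = 8.05e-06). SHR1, a regulator of root radial pattern, fell by 1.98 ± 0.15.

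Rises among the regulators included DREB2A, an AP2/ERF factor of drought and heat response, at 8.91 and 9.04 in stressed roots and 7.35 and 7.24 in control roots (1.68 ± 0.13, adjusted p = 3.63e-05). The related homeobox genes Hox22 and HOX24 moved apart: Hox22 read 12.61 and 12.64 in stressed roots and 10.75 and 10.79 in control roots (1.85 ± 0.11), and HOX24 read 8.63 and 8.58 in stressed roots and 10.83 and 10.92 in control roots (−2.27 ± 0.10). HOX7 rose by 2.08 ± 0.15. Of 78 calcium sensor kinases and calmodulins 23 rose and 24 fell (4 and 51 with spike-in scaling), not far from the 31.1% and 23.2% of all genes. The calmodulin-like genes CML1 and CML14 moved by 2.82 ± 0.12 and −3.73 ± 0.16, and the kinase gene CIPK12 rose by 2.45 ± 0.14.

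Of 16 chitinases and pathogenesis-related proteins 7 fell and 3 rose (median −0.36; 13 and 0 with spike-in scaling). CHT6 read 6.38 and 7.02 in stressed roots and 10.80 and 10.84 in control roots (−4.12 ± 0.23, adjusted p = 5.47e-06), and CHT2 fell by 3.22 ± 0.18. CHT1 (LOC4338719) rose by 1.42 ± 0.13.

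The 5 largest rises and the 5 largest falls among loci without a name were 7.06 or more and 6.06 or more in size. LOC4331521 read 13.37 and 13.31 in stressed roots and 5.31 and 4.48 in control roots (8.44 ± 0.27, adjusted p = 5.86e-07). LOC4331751, LOC4339887, LOC4346439 and LOC4347708 rose by 7.30 ± 0.16, 7.14 ± 0.12, 7.12 ± 0.18 and 7.06 ± 0.19. LOC4325841 read 3.595 and 4.43 in stressed roots and 10.68 and 10.79 in control roots (−6.72 ± 0.26, adjusted p = 1.2e-06). LOC4324330 and LOC4324329, direct neighbours in the genome, stood at −6.50 ± 0.55 and −6.24 ± 0.74, and LOC4329797 and LOC4327401 at −6.37 ± 0.34 and −6.06 ± 0.32. Stressed replicate 1 was the lower array in each of these 5 falls.

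Whether the response was particular to Nootripathu was tested as the difference between its drought effect and that of IR20. Of 57258 probe sets 19.6% passed, with the Nootripathu effect higher in 10.6% and lower in 8.99%. At the gene level 5896 of 17905 (32.9%) passed, with the Nootripathu effect higher in 3790 (21.2%) and lower in 2106 (11.8%). Without stressed IR20 replicate 2, the array with the high 3′ excess, 7048 genes passed, and 5635 of them also passed on all arrays in the same direction. Among probe sets 11204 passed, and the count was 6746 or 6509 without Nootripathu control replicate 1 or 2, 7362 or 7241 without stressed replicate 1 or 2, and 6948 without IR20 control replicate 2. Of the 73 genes that rose at least 16-fold in Nootripathu 72 also rose in IR20, where 28.9% of all genes rose, and of the 101 that fell as much 100 also fell, where 32.3% of all genes did. The 2 effects share no arrays, but they share the estimate of spread.

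In 6 of 8 genes of the dehydrin list the drought effect was higher in Nootripathu, while the stressed levels of those named here were close in the cultivars and the watered levels were not. RAB16C rose by 5.05 in Nootripathu and 2.59 in IR20 (adjusted p of the difference 7.72e-05). Its stressed mean was 14.29 in Nootripathu and 14.45 in IR20, and its watered mean 9.24 in Nootripathu and 11.86 in IR20. LEA3 rose by 3.48 in Nootripathu and 1.37 in IR20 (adjusted p of the difference 0.000109), with stressed means of 14.04 in Nootripathu and 14.07 in IR20 and watered means of 10.56 in Nootripathu and 12.70 in IR20. These signals lie near the top of the array range, and RAB21 is at that limit under stress in both cultivars, so its difference gives the gap in watered level alone. RAB25 showed no such gap, at 5.95 in Nootripathu and 5.96 in IR20 (adjusted p of the difference 0.983; difference −0.01 ± 0.19). SWEET12 rose by 4.96 in Nootripathu and 1.52 in IR20 (adjusted p of the difference 0.000122). AGPS2 rose by 3.34 and DPE2 by 2.46 in Nootripathu, against 1.59 and 0.95 in IR20 (adjusted p of the difference 0.000665 and 0.000563). The watered means of AGPS2 and DPE2 were 6.21 and 9.68 in Nootripathu and 7.39 and 10.82 in IR20. Their stressed means were 9.55 and 12.14 in Nootripathu and 8.98 and 11.77 in IR20. Much of the difference in these 2 genes is thus a gap in watered level. LAC10 rose by 4.03 in Nootripathu and by 0.45 in IR20 (adjusted p of the difference 1.77e-05), with watered means of 6.72 in Nootripathu and 9.40 in IR20 and stressed means of 10.75 in Nootripathu and 9.85 in IR20.

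Several replication and secondary wall genes rose in Nootripathu and were lower under stress in IR20. All 6 MCM2 to MCM7 genes passed the test of the difference, with medians of 0.85 in Nootripathu and −3.36 in IR20. MCM3 stood at 1.12 in Nootripathu and −3.68 in IR20, and RPA32 at 1.19 in Nootripathu and −3.71 in IR20 (adjusted p of the difference 0.000194 and 8.25e-06). Among all 39 markers of dividing cells the Nootripathu effect was higher in 22 and lower in 1. Of 9 CESA genes 8 passed with a higher Nootripathu effect (medians 0.49 in Nootripathu and −1.09 in IR20), CESA4 at 1.30 in Nootripathu and −1.35 in IR20 (adjusted p of the difference 3.37e-05). BC1 stood at 1.92 in Nootripathu and −2.80 in IR20 (4.9e-06, adjusted p of the difference). Watered levels differed here too, at 6.34 in Nootripathu and 8.27 in IR20 for MCM3 and at 6.68 in Nootripathu and 9.68 in IR20 for BC1.

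The largest positive differences among named genes were those of ALN and NRT2.3. ALN, which encodes allantoinase of purine nitrogen recycling, read 10.12 and 10.08 in stressed roots and 8.65 and 8.71 in control roots of Nootripathu, a rise of 1.42 ± 0.12, and changed by −5.94 ± 0.12 in IR20 (adjusted p of the difference 3.67e-06). NRT2.3 stood at −0.23 in Nootripathu and −6.38 in IR20 (adjusted p of the difference 7.41e-06), AMT1-2 at −2.71 in Nootripathu and −6.95 in IR20, and NAR2.2 at 3.86 in Nootripathu and −0.16 in IR20. PDC1 rose by 1.99 in Nootripathu and changed by −1.11 in IR20 (adjusted p of the difference 4.5e-05). Among uptake genes that fell in both cultivars the difference went either way. The fall was smaller in Nootripathu for LSI2 (−3.54 in Nootripathu and −6.998 in IR20), NRAMP5 (−4.04 in Nootripathu and −6.49 in IR20) and TIP2-1 (−4.79 in Nootripathu and −8.12 in IR20). It was larger in Nootripathu for PHT1-8 (−2.59 in Nootripathu and −1.09 in IR20, adjusted p of the difference 0.00301) and TIP2-2 (−2.93 in Nootripathu and −2.14 in IR20, adjusted p of the difference 0.0156). TIP2-1 ended at 5.03 in Nootripathu and 4.87 in IR20, and its watered means were 9.82 in Nootripathu and 12.98 in IR20. Its difference thus gives mainly the gap in watered level. The same holds for PHT1-8, which ended at 9.68 in Nootripathu and 9.86 in IR20. Its watered means were 12.27 in Nootripathu and 10.95 in IR20. Stressed levels of ILL3, an auxin-conjugate hydrolase relative, and the peroxidase gene PRX74 were low in both cultivars, at 4.22 and 3.19 in Nootripathu and 4.13 and 2.91 in IR20. The sizes of these falls are therefore set by the watered means, 5.31 and 6.84 in Nootripathu and 10.21 and 11.12 in IR20, and do not compare the responses.

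The largest negative difference among named genes was that of ABA8OX2. ABA8OX2 fell by 1.62 in Nootripathu and stood at 2.54 in IR20 (adjusted p of the difference 8.15e-06), and PP2C61 stood at −2.32 in Nootripathu and 1.19 in IR20 (1.24e-05). CPS2, of phytoalexin synthesis, read 6.36 and 6.32 in stressed roots and 6.71 and 5.91 in control roots of Nootripathu (0.03 ± 0.23, adjusted p = 0.946), and rose by 3.93 ± 0.23 in IR20. The transporter gene ABCG32 stood at −0.10 in Nootripathu and 3.72 in IR20, CHT1 (LOC4338719) at 1.42 in Nootripathu and 4.92 in IR20. IRL2, of a family of leucine-rich repeat proteins, and PSK4, a precursor of the peptide phytosulfokine, fell in Nootripathu, by 3.04 and 0.86, and stood at 0.43 and 2.37 in IR20; the fall of PSK4 did not pass without control replicate 2 or stressed replicate 2 (adjusted p = 0.0611 and 0.0573). Watered means of PP2C61 were 9.53 in Nootripathu and 7.17 in IR20, and those of IRL2 8.65 in Nootripathu and 5.97 in IR20. Much of the difference in these genes is thus a gap in watered level. GER1 fell further in Nootripathu, by 5.17, than in IR20, by 2.07. TIP3-1 rose less in Nootripathu, at 2.09, than in IR20, at 4.78. Its stressed means were close, at 10.97 in Nootripathu and 11.24 in IR20. Its watered means were 8.88 in Nootripathu and 6.46 in IR20, so its difference is mainly the gap in watered level.

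**Figure D5:**
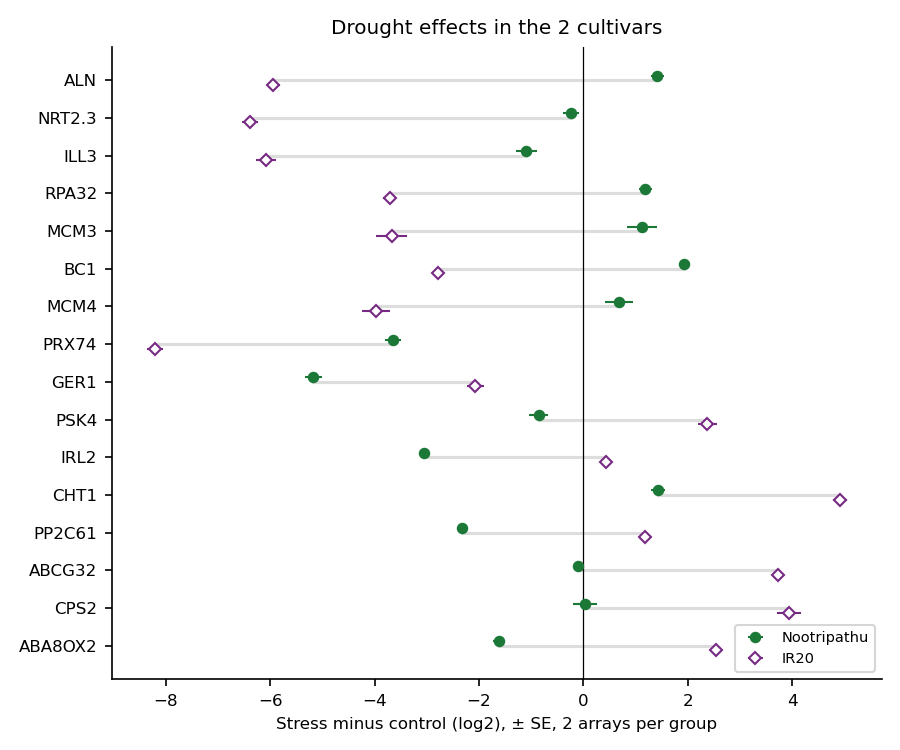
Drought effect (stress minus control, log2, with SE) in Nootripathu (filled circles) and IR20 (open diamonds) for the 8 named genes with the largest positive and the 8 with the largest negative difference between the cultivars, 2 arrays per group. ALN, RPA32, MCM3, MCM4 and BC1 lie above 0 in Nootripathu and below 0 in IR20, and ABA8OX2, PP2C61, IRL2 and PSK4 the other way round.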

How the data were processed

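Roots of 8 samples were hybridised to an Affymetrix rice genome array, from 2 ug of Trizol-extracted total RNA each, per the labels' protocols. The submitters' processing notes name Expression Console 3.0 and RMA, and the deposited values are on a log2 scale. The table held 57381 probe sets; 123 controls were left out of the test. Array data have no read depth; 2 arrays per group limit the precision.

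Samples were grouped by their titles. limma 3.58.1 in R 4.3.3 fitted 1 mean per group over all 8 arrays, with 4 residual and 3.88 prior degrees of freedom, with the Benjamini-Hochberg adjustment over 57258 probe sets. With 2 arrays on each side the smallest p of an exact permutation test is 0.333, so none was made. Data were simulated for the Nootripathu comparison with 57258 probe sets and 50 genes changed at each size. There limma found 26 of the 50 genes raised by 1 on the log2 scale and 48 of those raised by 2. It found 37 of those lowered by 1 and 0 of those raised by 0.5, and made 7 false calls. Far more changed in the measured data, where 31.9% of probe sets passed, so these counts cannot be carried over to them. Measured rises near 0.5 went either way in limma: SAPK4 passed at 0.52 (adjusted p = 0.00315) and PNH1 did not at 0.50 (adjusted p = 0.057).

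Of the probe sets 22436 belonged to 1 gene in the platform annotation, 95 to several and 34727 to none; genes are named by the symbols and synonyms of the RefSeq table of the assembly ASM3414082v1, which served otherwise only for gene order. The build behind the array is not given in the sources used here, so no coordinates are printed. Some probe sets may match several transcripts, and their values may include relatives. Of the genes named, these are the probe sets of LEA3, HSP18.8, CLPB-M, ABA8OX2, TPP7, TIP2-1, TIP2-2, TIP3-1, PIP2-2, NRT2.3, PHT1-8, CASP1, ORC4, DCL2A and ks1. Of the loci without a name that fell most, they are those of LOC4324330 and LOC4327401.

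The comparison, the gene lists and the genes to be named were chosen with earlier results of these data known, so the lists are described by counts and medians without a test of the list. Named genes are the 15 largest rises and falls, up to 4 each way per list, single genes of interest, the 8 largest differences each way between cultivars and 5 unnamed loci each way. RAB16D, RAB21, SUS2, YSL15, CASP1, CESA7, CESA9 and GH3-8 were added to complete families or as markers. Lists hold only genes with a name. Promoter motifs were not analysed here. Alternatives were median-centring, renewed quantile normalisation, spike-in scaling, a fit of 4 arrays, a replicate block, 2 filters, 2 priors, array weights, leaving out each array in turn, and a minimum of 2-fold.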

Additional observations from a re-analysis of the deposited data

Results flagged for a closer look

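For 39 genes described above, the test of the difference between the drought effects of the cultivars passed (limma, adjusted p 3.67e-06 to 0.00734, n = 2 arrays per group); values are the Nootripathu effect minus the IR20 effect on the log2 scale. All 39 passed in the same direction without stressed IR20 replicate 2, with shifts of at most 0.51.

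In nitrogen and fermentation genes the differences were 7.36 for ALN, 6.15 for NRT2.3, 4.24 for AMT1-2, 4.02 for NAR2.2 and 3.10 for PDC1. Replication genes stood at 4.90 for RPA32, 4.80 for MCM3, 4.66 for MCM4 and 4.22 for MCM5. Wall genes stood at 4.72 for BC1, 4.56 for PRX74, 3.58 for LAC10, 2.65 for CESA4, 2.41 for CESA7 and 1.74 for CESA9, and at −3.10 for GER1. Dehydrins and other LEA genes stood at 2.46 for RAB16C, 1.97 for RAB16B, 2.09 for RAB16D, 1.86 for RAB21, 2.11 for LEA3 and 1.71 for EMP1 (RAB21 is at the top of the array range under stress in both cultivars, so its value gives the gap in watered level alone), and the small heat shock gene HSP16.9A at 1.83. Sugar and starch genes stood at 3.44 for SWEET12, 1.74 for AGPS2 and 1.51 for DPE2. Uptake genes stood at 3.46 for LSI2, 2.45 for NRAMP5, 3.33 for TIP2-1 and −2.69 for TIP3-1. For TIP2-1, TIP3-1, RAB16B, RAB16C, RAB16D and LEA3 the stressed means were close in the cultivars, so the value gives mainly the gap in watered level. For AGPS2, DPE2, IRL2 and PP2C61 the watered means also differed, and much of the value is that gap. For ILL3 and PRX74, near the floor under stress in both cultivars, the value likewise gives mainly the watered gap. Hormone genes stood at 4.99 for ILL3, 3.78 for LOGL10, −4.16 for ABA8OX2 and −3.50 for PP2C61. Defence and peptide genes stood at −3.90 for CPS2, −3.82 for ABCG32, −3.49 for CHT1 (LOC4338719), −3.47 for IRL2 and −3.23 for PSK4.

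Outside the main measurement, the 3′ probe sets of the poly-A spike-in controls were brighter on the stressed than on the control Nootripathu arrays by 0.89.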

How the results depend on the processing

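The count of probe sets that passed in Nootripathu was 18267 and lay within 1.5 times of it in each alternative except spike-in scaling, with 43988, and a 2-fold minimum, with 7199. For the difference between cultivars the count was 11204, against 3228 with spike-in scaling and 5142 with a 2-fold minimum. Leaving out 1 array gave 13116 to 21265 for the drought effect and 6509 to 14153 for the difference, which fell by over 1.5 times without Nootripathu control replicate 1 or 2, Nootripathu stressed replicate 1 or 2, or IR20 control replicate 2. The groups share replicate numbers, but the labels tie them to nothing and deviations of same-numbered arrays correlated at 0.0997 between the Nootripathu groups, 0.207 between the IR20 groups, 0.113 between the stressed groups and −0.0145 to 0.0899 between the others, so not every pair is above 0.1; with the replicate block 18490 and 11251 probe sets passed, and no named gene changed its call. With spike-in scaling the signs of P5CS1 (−0.148), SAPK10 (−0.0085), CESA7 (−0.153), CESA9 (−0.0656) and CPS2 (−0.864) turned. Over 163 single genes and all alternatives, 2864 of 2919 comparisons kept direction and call, 37 lost the call, 13 gained it and 5 changed sign. Array signals bound changes that end near 2.53 or 15.3.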
